A study of Rattus norvegicus with 6 samples.

Results

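The genes of white fat cells and of lipid storage were followed in the thoracic aorta of SHR and WKY rats. The list names 34 genes, chosen by name with earlier results of these data known. A gene was measured if the platform annotation assigns a probe set, a group of short probes for one transcript, to that gene alone. This held for 32 of the 34, out of 18166 genes measured in all, and all 32 passed the filter on dim probe sets. Fabp5, a fatty acid carrier, and Fasn, the fatty acid synthase, had no probe set named for them alone and were not analysed here.

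The tested animals were spontaneously hypertensive rats (SHR), an inbred strain with inherited high blood pressure, and the control animals were Wistar-Kyoto rats (WKY), which share their ancestry and keep a normal pressure. All were 24 weeks old and had no treatment, and their sex is not given in the sources used here. Each strain had 3 Affymetrix Rat Gene 2.0 ST arrays, 6 in all. Per the labels, fat and connective tissue sticking to the vessels had been removed before freezing. The labels do not say whether each array held a different animal, so a p-value here reflects the scatter among these arrays, and some of that scatter may be technical. Levels are on the log2 scale of the deposited values, on which 1 unit is a doubling of the signal. Array medians were 2.29 to 2.52, and no detection calls came with the values, so a level near or under these medians is not shown to lie above background. WKY replicate 3 had a narrower spread over all probe sets (SD 2.12) than the other 5 arrays (2.22 to 2.27).

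White adipocytes store energy as triglyceride in a single large droplet coated with perilipins and related proteins. Fatty acids reach them from the blood through lipoprotein lipase or are made from glucose by the enzymes of lipogenesis. They are joined to a glycerol backbone for storage and released again by a chain of lipases. PPARG and C/EBP alpha are the transcription factors that switch on this programme, and adiponectin, leptin and resistin are hormones that rodent adipocytes secrete. In the rat the thoracic aorta is surrounded by perivascular fat, which resembles brown fat in part.

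The levels of the members varied together from array to array, and the spread within a strain was wider than the difference between strains for most of them. Adipoq, which encodes adiponectin and is nearly restricted to adipocytes, lay at 9.06, 6.99 and 4.61 on SHR replicates 1 to 3, against 8.70, 7.48 and 6.76 on WKY replicates 1 to 3. The highest and the lowest array were both SHR, 4.44 log2 units or 21.8-fold apart, and the 3 WKY values lay between them. In 26 of the 32 members the lowest array was SHR replicate 3, which was the lowest for 14.96% of all 21659 tested probe sets. In 31 of 32 the highest array was SHR replicate 1 or WKY replicate 1, as for 29.0% of all tested probe sets. In a bulk sample fewer adipocytes and less RNA of these genes per adipocyte cannot be told apart.

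**Figure D1:**
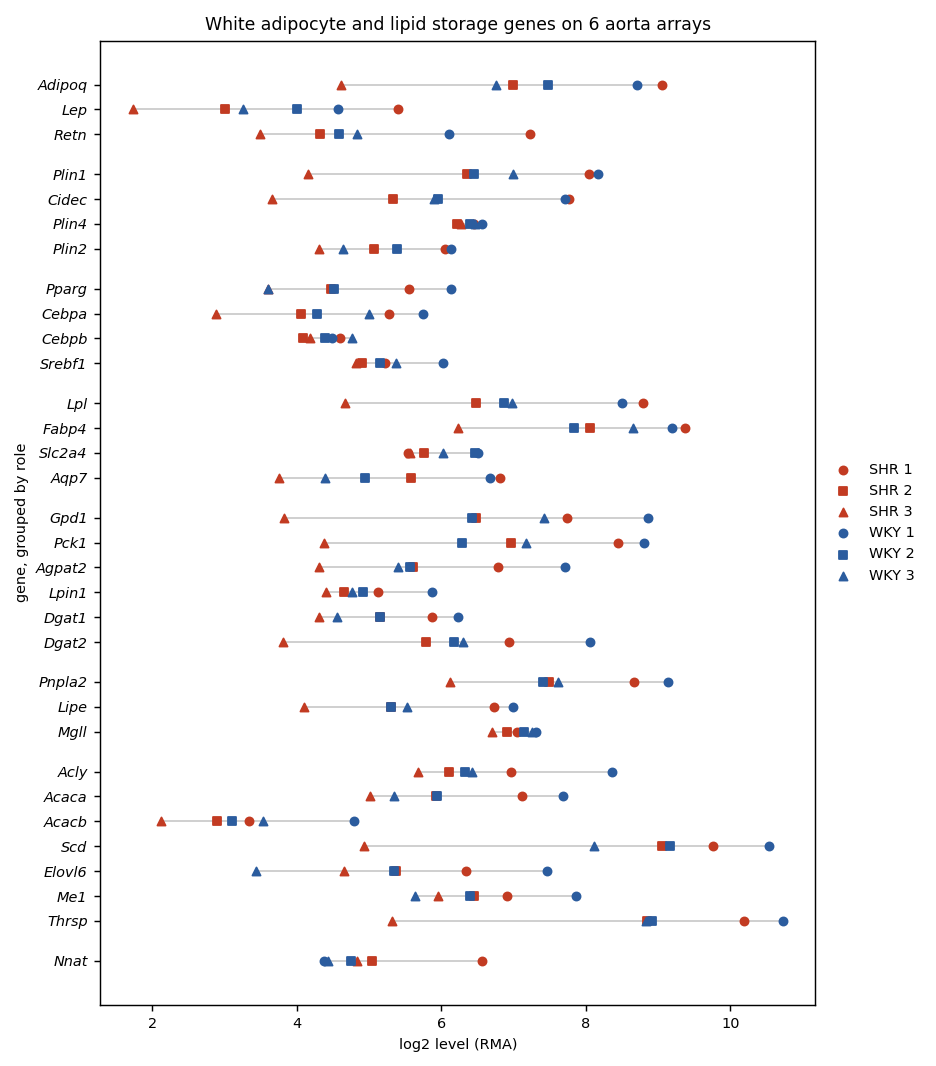
Log2 level of each of the 32 measured genes (rows, grouped by role) on the 6 arrays, SHR in red and WKY in blue, with circles, squares and triangles for replicates 1, 2 and 3. The grey line joins the lowest and highest array; in most rows it ends at SHR replicate 3 on the left and at SHR or WKY replicate 1 on the right.

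The order SHR replicate 1 above replicate 2 above replicate 3, with replicate 1 the highest of the WKY arrays, was found in 28 of 32 members and in 8.48% of all tested probe sets. The exceptions were Plin4, Cebpb, Slc2a4 and Nnat. The median span from lowest to highest array was 2.96 log2 units over the members, against 0.67 over all tested probe sets. A span of at least 2 units was found in 24 of 32 members and in 3.13% of all tested probe sets, and one of at least 3 units in 16 members and 0.82% of probe sets. Without SHR replicate 3 the median span of the members was 2.22.

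The other adipokine genes followed Adipoq. Lep, which encodes the satiety hormone leptin, lay at 5.40, 3.01 and 1.73 on the SHR arrays and at 4.57, 3.997 and 3.25 on the WKY arrays. The lowest value, on SHR replicate 3, is under every array median. Retn, which encodes resistin, lay at 7.23, 4.33 and 3.49 in SHR and at 6.10, 4.58 and 4.83 in WKY. For both genes SHR replicate 1 was the highest of the 6 arrays, and the strains overlapped.

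Genes of the droplet surface differed in how far they varied. Cidec, which helps droplets fuse into a large one, had levels of 7.77, 5.33 and 3.65 in SHR and 7.71, 5.96 and 5.90 in WKY. Plin1, the perilipin that guards the droplet of adipocytes, had levels of 8.04, 6.36 and 4.15 in SHR and 8.17, 6.46 and 6.99 in WKY. Replicate 1 of each strain thus stood at nearly the same level for these genes. Plin2, a perilipin found in many cell types, spanned 1.83 units. Plin4 spanned only 0.34, less than most tested probe sets, with levels of 6.45, 6.22 and 6.27 in SHR and 6.56, 6.40 and 6.47 in WKY.

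The start regions of 5 of these adipocyte genes are shown, picked because each holds a match to a motif named below. Pck1, the only one of them not yet described, is the enzyme that supplies the glycerol backbone. The regions come from RefSeq, build GRCr8, and are written 5′ to 3′ on the strand of the gene. Capitals mark matches to TTGCNNAA, a core of C/EBP sites (in Lep the full palindrome TTGCGCAA), or to AGGTCA, the half-site of nuclear receptors such as PPARG.
Lep, chr4:58626413-58626532, plus strand: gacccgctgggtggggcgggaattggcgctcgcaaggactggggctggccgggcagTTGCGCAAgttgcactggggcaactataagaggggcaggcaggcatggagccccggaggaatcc
Plin1, chr1:143086162-143086281, minus strand: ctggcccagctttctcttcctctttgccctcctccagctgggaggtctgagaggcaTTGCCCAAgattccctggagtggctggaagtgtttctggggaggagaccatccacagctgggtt
Cidec, chr4:148137246-148137365, minus strand: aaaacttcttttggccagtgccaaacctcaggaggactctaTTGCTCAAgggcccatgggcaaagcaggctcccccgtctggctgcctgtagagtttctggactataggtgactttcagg
Retn, chr12:6508569-6508808, plus strand: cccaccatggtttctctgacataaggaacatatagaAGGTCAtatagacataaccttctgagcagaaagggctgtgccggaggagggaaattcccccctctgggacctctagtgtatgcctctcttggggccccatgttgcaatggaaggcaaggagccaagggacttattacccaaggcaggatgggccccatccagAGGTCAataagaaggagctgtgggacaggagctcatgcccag
Pck1, chr3:182348371-182348490, plus strand: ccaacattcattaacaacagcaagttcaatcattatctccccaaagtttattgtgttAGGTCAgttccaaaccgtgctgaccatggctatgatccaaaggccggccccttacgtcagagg

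The promoter table holds 250 bases before to 50 after the start for 21 of the 34 genes, and motifs were searched on both strands. TTGCGCAA was found only in Lep among these 21, and in 0.17% of all 33469 promoters of the table. The looser TTGCNNAA, which includes it, was in 4 of 21 (Cidec, Lep, Plin1 and Pparg) and in 10.6% of all promoters. AGGTCA was in 3 of 21 (Acacb, Pck1 and Retn) and in 16.2% of all. A direct repeat of AGGTCA with 1 base between, the arrangement PPARG binds, was in 0 of 21 and in 0.0538% of all. With up to 2 mismatches it was in 2 of 21 (Acacb and Acly) and in 3.77% of all. TCACNCCAC, a core of sterol elements, was in 0 of 21 and 1.12% of all, the E-box CACGTG in 2 of 21 (Mgll and Plin2) and 6.42%, and TATAAA in 3 of 21 (Cebpa, Cebpb and Pparg) and 14.2%. These are matches of letters in short windows, and enhancers farther away were not searched.

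Among the transcription factors the adipocyte pair moved and the broadly expressed ones moved less. Cebpa, which encodes C/EBP alpha, lay at 5.28, 4.06 and 2.88 in SHR and at 5.74, 4.27 and 4.999 in WKY. Pparg, the master regulator of adipocyte formation, lay at 5.55, 4.47 and 3.60 in SHR and at 6.14, 4.52 and 3.61 in WKY. Replicate 3 of WKY was thus as low as replicate 3 of SHR for Pparg but not for Cebpa. Srebf1, the regulator of lipogenic genes, spanned 1.21 units. Cebpb, an early factor that is active in many tissues, spanned 0.69.

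Of the 4 measured uptake and transport genes, 3 (Lpl, Fabp4 and Aqp7) had an r with Adipoq of 0.93 to 0.98 over the arrays, and Slc2a4 had 0.35. Lpl, the lipase that frees fatty acids from blood lipoproteins, lay at 8.79, 6.48 and 4.67 in SHR and at 8.50, 6.86 and 6.98 in WKY. The carrier gene Fabp4 spanned 3.13 units and the glycerol channel gene Aqp7 spanned 3.07, and for both the highest array was SHR replicate 1 and the lowest SHR replicate 3. Slc2a4, which encodes the insulin-responsive glucose transporter GLUT4 of fat and muscle, took another course, at 5.54, 5.76 and 5.56 in SHR against 6.51, 6.47 and 6.03 in WKY. All SHR values of Slc2a4 lay below all WKY values, and the SHR arrays lay close together where those of Adipoq were 4.44 apart.

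All 6 genes of triglyceride assembly were highest on WKY replicate 1 and lowest on SHR replicate 3. Gpd1, which makes glycerol phosphate, lay at 7.73, 6.48 and 3.83 in SHR and at 8.86, 6.43 and 7.42 in WKY. Pck1 had levels of 8.45, 6.97 and 4.38 in SHR and 8.80, 6.28 and 7.17 in WKY. Dgat2, which adds the last fatty acid, had levels of 6.94, 5.78 and 3.81 in SHR and 8.06, 6.17 and 6.30 in WKY. The acyltransferase gene Agpat2 spanned 3.41 units, Dgat1, the other enzyme of the last step, 1.92, and the phosphatase gene Lpin1 1.46.

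The lipases that open the stores moved with the genes that fill them. Pnpla2, whose product takes off the first fatty acid, lay at 8.67, 7.49 and 6.12 in SHR and at 9.14, 7.405 and 7.62 in WKY. Lipe, the hormone-sensitive lipase, lay at 6.73, 5.30 and 4.11 in SHR and at 6.9997, 5.31 and 5.52 in WKY. Mgll, which finishes the chain and acts in many tissues, spanned 0.61 units and was at 7.05, 6.91 and 6.70 in SHR against 7.31, 7.15 and 7.26 in WKY. Its strains did not overlap.

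The widest spans of the list were among genes of fatty acid synthesis. Scd, the desaturase that makes monounsaturated fatty acids, lay at 9.76, 9.05 and 4.93 in SHR and at 10.53, 9.17 and 8.12 in WKY, a span of 5.60 units or 48.6-fold. Thrsp, the lipogenic factor Spot 14, lay at 10.20, 8.85 and 5.32 in SHR and at 10.73, 8.92 and 8.84 in WKY. For both genes SHR replicate 3 stood more than 2 units below every other array. Elovl6, which lengthens fatty acids, spanned 4.02 units and had its lowest value on another array, with 6.34, 5.37 and 4.66 in SHR and 7.46, 5.35 and 3.44 in WKY. Me1, the malic enzyme that supplies reducing power, was also lowest on WKY replicate 3, with a span of 2.24. Acly, which makes cytosolic acetyl-CoA, and the acetyl-CoA carboxylases Acaca and Acacb spanned 2.67 to 2.68 units, and each was highest on WKY replicate 1. The lowest value of Acacb, 2.12 on SHR replicate 3, is under every array median.

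Nnat, which encodes the small membrane protein neuronatin and is abundant in nerve cells, lay outside the pattern. It stood at 6.57, 5.04 and 4.84 in SHR and at 4.37, 4.75 and 4.43 in WKY. All SHR values lay above all WKY values, and 1 array, SHR replicate 1, was far above the rest. The 6 tested nerve markers had means of 5.26, 2.81 and 2.67 in SHR and 3.16, 2.80 and 3.32 in WKY. Of these, 4 were highest on SHR replicate 1 (Th, Dbh, Prph and S100b), while Mbp was highest on WKY replicate 1 and Sox10 on WKY replicate 3. A second, dimmer probe set of Mbp was highest on SHR replicate 1, at 3.96 against 2.21 to 2.85 on the other 5 arrays. Th, the first enzyme of noradrenaline synthesis, lay at 5.92 on SHR replicate 1 and at no more than 1.68 on the other 5 arrays. The part of nerve tissue in the level of Nnat was not tested. A second, dimmer probe set of Nnat, at 1.49 to 2.02, differed by -0.08 between the strains.

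**Figure D2:**
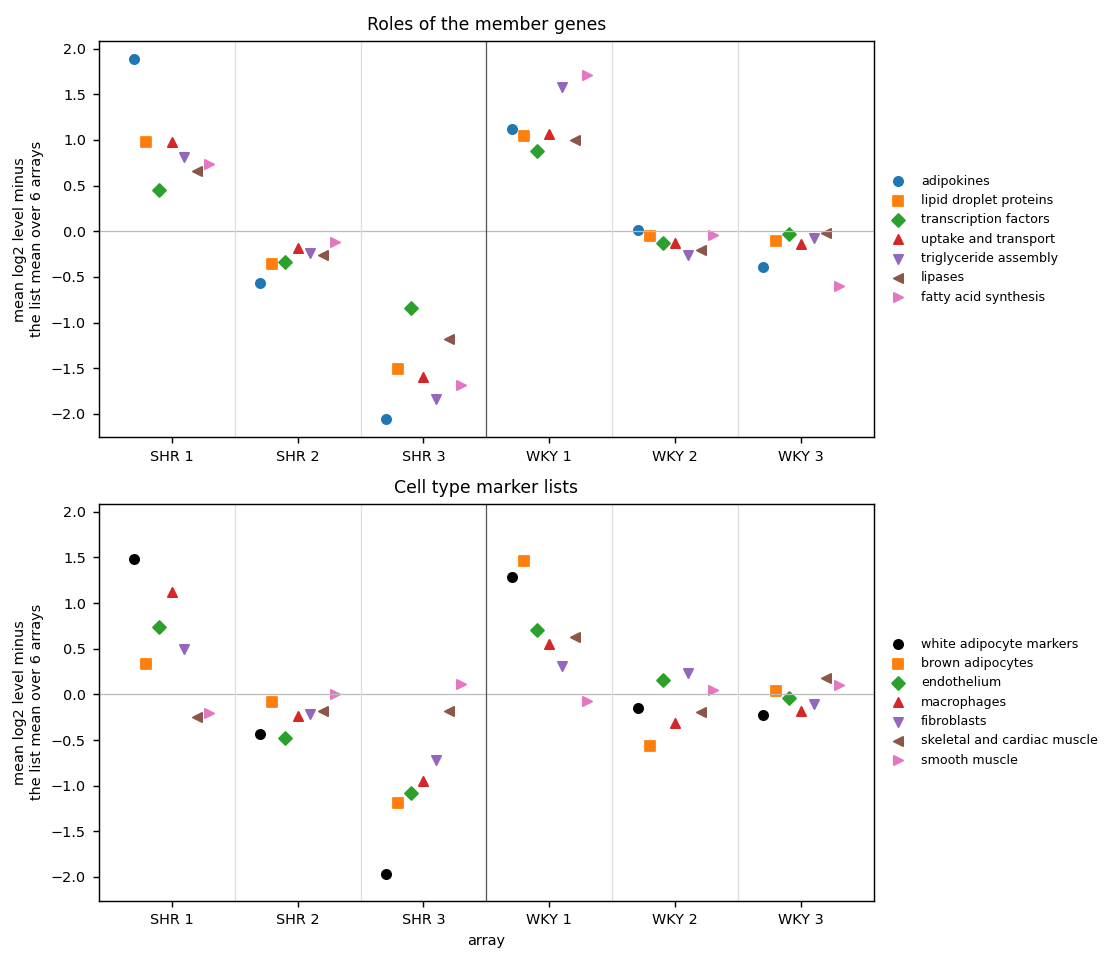
Mean log2 level of each role group of the members (upper panel) and of the cell type marker lists (lower panel) on each array, minus the mean of that group over the 6 arrays. Neuronatin and the nerve markers are left out. The role groups lie above 0 on replicate 1 of both strains and farthest below 0 on SHR replicate 3, while smooth muscle markers stay close to 0 on every array.

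The replicates numbered 1 of each strain were similar in the overall level of the members, with means of 6.93 (SHR) and 7.25 (WKY), but not in every role. All 3 adipokines were higher on SHR replicate 1, Retn by 1.13, Lep by 0.83 and Adipoq by 0.36. Among the uptake and transport genes Lpl, Fabp4 and Aqp7 were higher there by 0.29, 0.18 and 0.14, and Slc2a4 was lower, at -0.97. Among the transcription factor genes Cebpb was higher by 0.11, and Srebf1, Pparg and Cebpa were lower, at -0.79, -0.59 and -0.46. Of the droplet genes Cidec was higher by 0.064, and Plin1, Plin4 and Plin2 were lower by at most 0.13. All 6 triglyceride assembly genes, all 3 lipases and all 7 fatty acid synthesis genes were lower on SHR replicate 1, with medians of -0.83, -0.27 and -0.96 (SHR replicate 1 minus WKY replicate 1). Acacb and Acly were lower by 1.45 and 1.40. These are single arrays, so the differences have no replicate check.

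**Figure D3:**
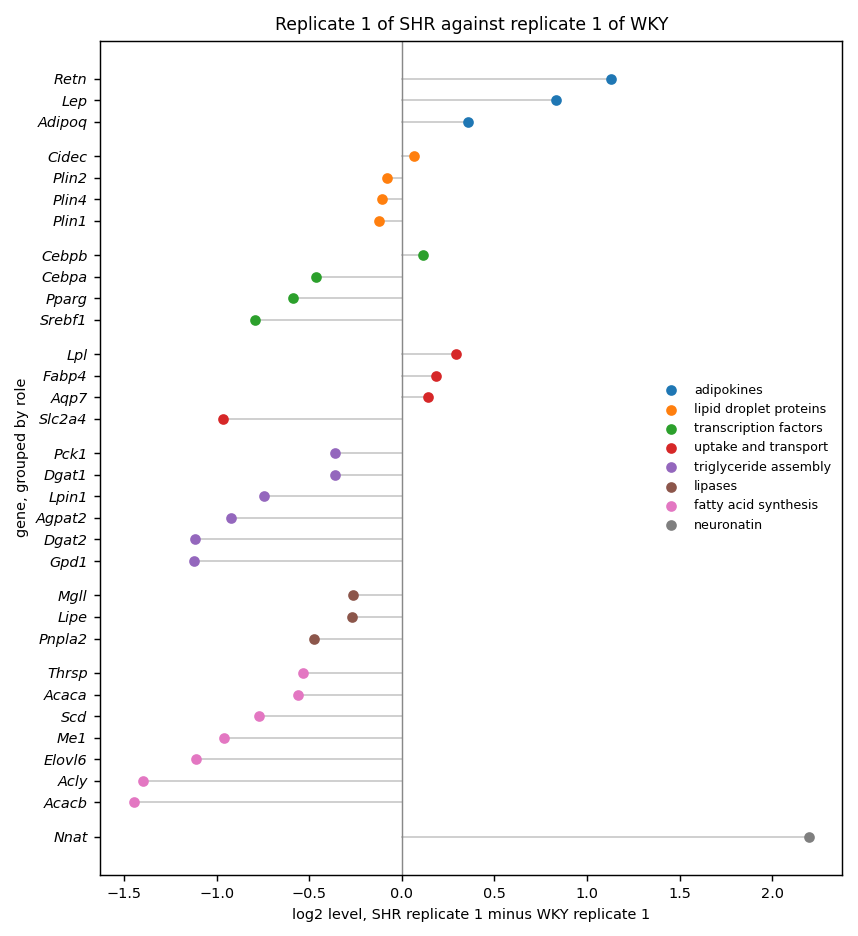
Log2 level on SHR replicate 1 minus that on WKY replicate 1 for each measured gene, by role. The adipokines lie to the right of 0, and the genes of triglyceride assembly, the lipases and fatty acid synthesis lie to the left.

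Of 7 tested markers of brown adipocytes, 5 (Ucp1, Cidea, Cox8b, Cpt1b and Otop1) were lower on SHR replicate 1 than on WKY replicate 1, and 2 were higher, Dio2 by 1.09 and Ppargc1a by 0.55. The mean over the 7 was 5.03 on SHR replicate 1 and 6.16 on WKY replicate 1. All 9 tested markers of skeletal and cardiac muscle were lower on SHR replicate 1 as well, with a median of -0.73. Their differences ran from -0.055 (Tnnt2) to -2.52 (Tnnc2). The mean of these 9 was 2.44 on SHR replicate 1, a level near the array medians, and 3.32 on WKY replicate 1. Ucp1, the uncoupling protein that defines brown fat, was at 6.86, 5.88 and 1.74 in SHR and at 9.43, 5.35 and 6.92 in WKY. Ucp1 on SHR replicate 3 is under every array median. Several lipid genes serve brown as well as white adipocytes, and the share of each cell type in these levels was not tested.

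Marker lists of other cell types varied over the arrays too, and their part in the levels of the members was not tested. Macrophage markers (10 genes) had means of 5.31, 3.96 and 3.25 in SHR and 4.74, 3.88 and 4.01 in WKY. Endothelial markers (8 genes) had means of 6.20, 4.98 and 4.38 in SHR and 6.16, 5.61 and 5.42 in WKY. Fibroblast markers (10 genes) had means of 8.16, 7.45 and 6.95 in SHR and 7.98, 7.90 and 7.57 in WKY. Of these 10, 6 were lowest on SHR replicate 3, while the collagen genes Col1a1 and Col1a2 were lowest on WKY replicate 1. Smooth muscle markers (8 genes), which define the aortic wall itself, hardly moved, at 9.22, 9.44 and 9.54 in SHR and 9.36, 9.47 and 9.53 in WKY, and were lowest on SHR replicate 1. Skeletal and cardiac muscle markers (9 genes) were low, at 2.44 to 2.51 in SHR and 2.50 to 3.32 in WKY. The white adipocyte markers (8 of 8 measured, all of them members) had means of 7.39, 5.48 and 3.95 in SHR and 7.197, 5.77 and 5.69 in WKY.

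Likeness to Adipoq over the 6 arrays was described by Pearson's r, without a p-value. The median r of the other 31 members was 0.91, and all 31 were above 0, against a median of -0.05 over all tested probe sets. An r of at least 0.9 was reached by 16 of 31 members and by 1.53% of all tested probe sets. By ranks (Spearman's rho) the median was 0.77, and 8 of 31 members and 2.37% of probe sets reached 0.9. Lpl (0.98), Cidec (0.98), Lep (0.98) and Thrsp (0.96) were among the closest, and Slc2a4 (0.35), Nnat (0.40) and Cebpb (0.47) the least alike. Without SHR replicate 3 the count of members at 0.9 or above was 11 of 31. Without SHR replicates 1 and 3, the arrays farthest from the median of Adipoq, it was 15 of 31 over the 4 arrays left, against 4.57% of all tested probe sets. A high r was not particular to the lipid genes. Endothelial markers had a median r of 0.90, with 4 of 8 at 0.9 or above. Macrophage markers had 0.89, with 5 of 10, and fibroblast markers 0.87, with 4 of 10. Brown adipocyte, nerve, and skeletal and cardiac muscle markers had medians of 0.64, 0.49 and 0.31, and smooth muscle markers -0.61.

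**Figure D4:**
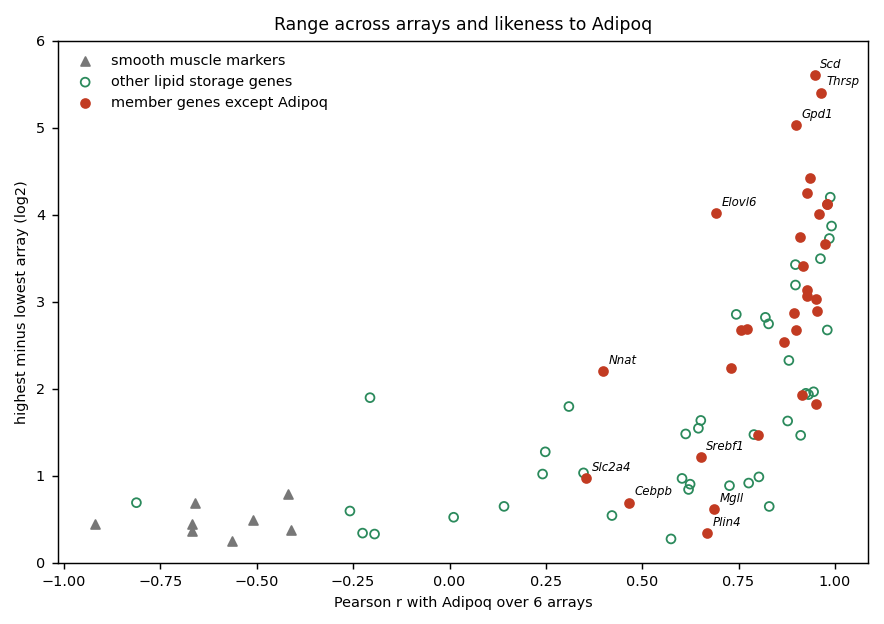
Span from the lowest to the highest of 6 arrays (vertical axis, log2 units) against Pearson's r with Adipoq (horizontal axis) for the members other than Adipoq (filled circles), other lipid storage genes (open circles) and smooth muscle markers (triangles). Most members lie at the upper right, while Slc2a4, Nnat, Cebpb, Srebf1, Plin4, Mgll and Elovl6 lie apart from them at lower r.

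Outside the lists, 345 named genes spanned at least 2 log2 units, and 10 of these were taken by the highest r with Adipoq. They were Mgst1, Car3, Srpx, Pon3, Slc25a10, Cd93, F13a1, Enpp5, Selenop and Mme, with r from 0.973 to 0.996. Car3, a carbonic anhydrase abundant in fat and muscle, lay at 10.90, 8.92 and 7.198 in SHR and at 10.22, 9.23 and 8.78 in WKY. Mgst1, a microsomal glutathione transferase, lay at 9.14, 7.39 and 5.22 in SHR and at 9.01, 7.65 and 7.35 in WKY. F13a1, a clotting factor subunit made by macrophages, and Cd93, a receptor of endothelial and myeloid cells, spanned 3.34 and 2.40 units.

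Between the strains, no member differed by more than the spread allowed the test to call. Fitted differences (SHR minus WKY, limma over all 21659 tested probe sets) were below 0 for 29 of the 32 members and for 52.0% of all tested probe sets. Their median was -0.60 over the members, against -0.01 over all tested probe sets. None of the 32 passed at an adjusted p under 0.05, neither lower nor higher, where 0.0693% of all tested probe sets passed and 0.00923% passed as lower in SHR. The smallest limma adjusted p among them was 0.516. At an unadjusted p under 0.05 there was 1 member of 32, and 5.55% of all tested probe sets. The strains did not overlap in 3 of 32 members (Slc2a4, Mgll and Nnat) and in 12.1% of all tested probe sets. In 25 of 32 members the difference was smaller than the pooled SD of the arrays within a strain.

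The size of the differences shows how wide the spread was. Adipoq averaged 6.89 ± 2.22 in SHR and 7.65 ± 0.98 in WKY (SD, n = 3 each), a difference of -0.76 ± 1.04 (SE; limma adjusted p = 0.941). Gpd1 had the largest difference, -1.56 ± 1.0004 (SE; limma adjusted p = 0.923), with means of 6.01 ± 1.99 in SHR and 7.57 ± 1.22 in WKY. For Thrsp, Scd and Dgat2 the differences were -1.37 ± 1.17, -1.36 ± 1.23 and -1.33 ± 0.82 (SE; each with a limma adjusted p of 0.923). The median SD within a strain over the members was 1.22 in SHR and 0.92 in WKY.

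Slc2a4 had the smallest p of the list. It averaged 5.62 ± 0.12 in SHR and 6.34 ± 0.27 in WKY (SD, n = 3 each). The difference was -0.71 ± 0.18 (SE; limma adjusted p = 0.516), so it did not pass, and it was the only member under 0.05 before adjustment. Its difference stayed between -0.87 and -0.63 whichever array was left out, and was -0.69 with the Adipoq level as a covariate. Mgll differed by -0.35 ± 0.15 (SE; limma adjusted p = 0.903), with -0.44 to -0.26 when 1 array was left out. Nnat differed by 0.96 ± 0.43 (SE; limma adjusted p = 0.919). Without SHR replicate 1 the difference of Nnat was 0.42, and with the mean of its probe sets it was 0.44.

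For most members the sign of the difference rested on 1 array. Without SHR replicate 3 only 13 of 32 differences were below 0 and their mean was 0.03, against 29 of 32 and -0.58 with all arrays. Adipoq then differed by 0.38. Without WKY replicate 1 there were 22 below 0 and the mean was -0.11. Without SHR replicate 1 it was -1.17, with 31 below 0 and 12 at an unadjusted p under 0.05, and none passed. The share of all tested probe sets at that unadjusted p in the same fit was not computed, so the 12 have no background to be read against. At an adjusted p under 0.05, 5 of all tested probe sets passed in that fit. Without WKY replicate 3 the mean was -0.84 and without WKY replicate 2 it was -0.78. In all, 19 of 32 members changed sign without 1 of the arrays. The other 13 include Slc2a4, Mgll and Nnat, whose sign cannot change in this way since their strains do not overlap, and Gpd1, Dgat2, Acacb, Cebpa and Srebf1.

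**Figure D5:**
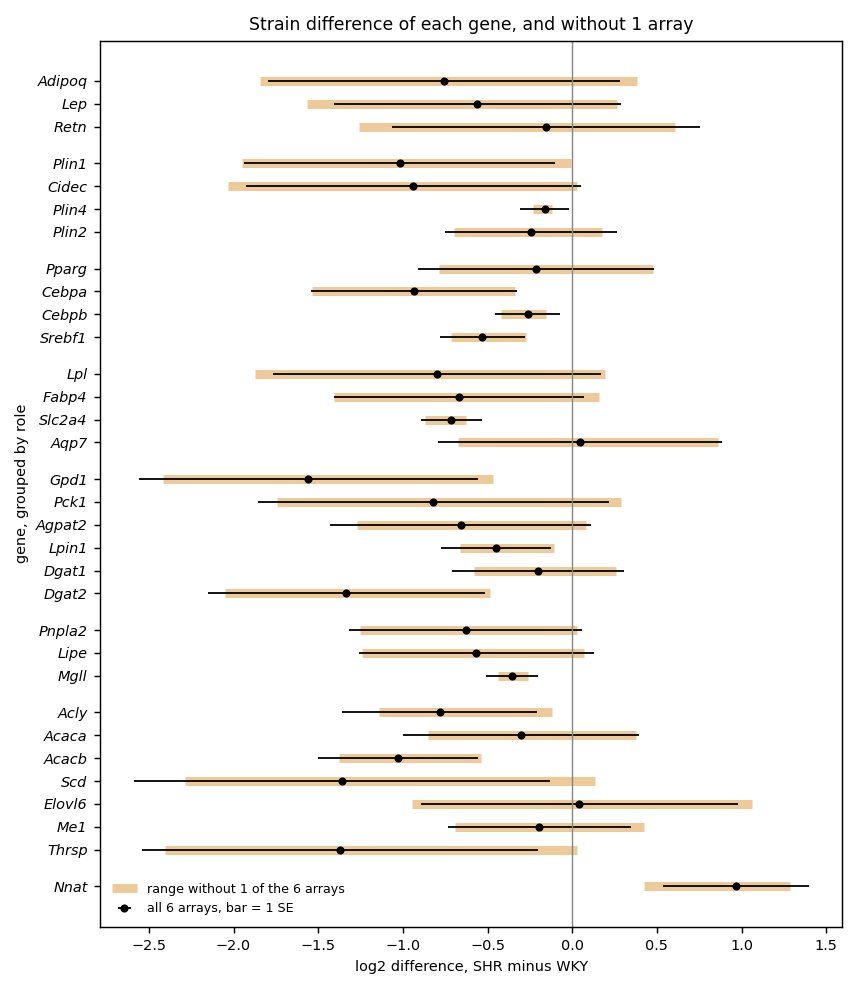
Fitted log2 difference, SHR minus WKY, of each measured gene (points, with bars of 1 SE) and the range of that difference when each of the 6 arrays is left out in turn (wide bars). Most points lie left of 0, and 19 of the 32 wide bars cross it.

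Of 45 further genes of adipocytes and lipid storage, 40 were tested. In limma 0 of 40 passed, where 0.0693% of all tested probe sets passed, and the smallest adjusted p was 0.528. At an unadjusted p under 0.05 there were 3 of 40 (1 higher and 2 lower), and 5.55% of all tested probe sets. The median difference was -0.12, with 24 of 40 below 0, against 52.0% of all tested probe sets. Cd36, the fatty acid translocase, had no probe set named for it alone and was not analysed here. Adipsin, encoded by Cfd and secreted by adipocytes, lay at 7.76, 5.97 and 4.27 in SHR and at 7.53, 6.11 and 6.59 in WKY, with an r with Adipoq of 0.96. Over the 40 genes r had a median of 0.74 and reached 0.9 in 9, among them Rbp4, Lgals12 and Trarg1 (0.99 each). The lowest r was -0.81, for Mogat1, whose levels were under every array median. The 4 with the smallest p did not follow Adipoq, with r from -0.21 to 0.35. Klf15, a glucocorticoid-responsive transcription factor that can raise Slc2a4 in cultured mouse fat and muscle cells, lay at 3.22, 3.99 and 3.99 in SHR and at 4.47, 4.75 and 5.11 in WKY. Its strains did not overlap, and its difference was -1.05 ± 0.27 (SE; limma adjusted p = 0.528). Plin5, a perilipin of oxidative tissues, differed by -0.60, Hsd11b1, which regenerates active glucocorticoid, by 0.87 and the fatty acid transporter gene Slc27a4 by 0.45 (limma adjusted p of 0.796, 0.798 and 0.921). The strains did not overlap in these 4 of the 40 genes, against 12.1% of all tested probe sets.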

How the data were processed

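RNA from thoracic aorta was measured on 6 Affymetrix Rat Gene 2.0 ST arrays. The deposited values are log2 levels per probe set that the authors computed by RMA, and the submitters' processing notes name Affymetrix Expression Console 1.2.1; the base follows from the definition of RMA. Quantile normalization within RMA makes levels relative to the rest of an array. Neither annotation version nor build is given in the sources used here. Groups and replicate numbers come from the titles. Of 28879 probe sets, 18511 have 1 gene symbol in the platform annotation. The 21659 whose mean was at or above the 25th percentile (1.17) were fitted with limma 3.58.1 in R 4.3.3 (strain only, two-sided, Benjamini-Hochberg over all of them). The fit was tested on simulated data in which probe sets varied independently of each other, unlike the members here. A gene with several probe sets is represented by the brightest.

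The members and lists were chosen with earlier results of these data known. Of each role the 1 to 3 genes with the widest span are given array by array, with any whose strains did not overlap at an unadjusted p under 0.05; of further lipid genes, the 4 with the smallest p, Cd36 and Cfd; outside the lists, the 10 with the highest r with Adipoq. Rbp4, Lgals12, Trarg1, Mogat1, Mgll and Plin4 and the single marker genes were named after their values were seen. Alternatives were a replicate block, other filters, scalings and variance priors, array weights, leaving out arrays, the Adipoq level as covariate and the mean of probe sets. The number of arrays limits the precision.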

Additional observations from a re-analysis of the deposited data

How the results depend on the processing

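No member and none of the 40 further lipid genes passed in limma under any of the 16 alternatives, and the smallest adjusted p of a member was 0.0782 (Slc2a4, array weights). The number of members below 0 was 29 to 31 under the other filters, scalings, priors and weights, 21 of 31 with Adipoq as covariate, and 13 to 31 without 1 array. The differences that changed sign without 1 array ranged as follows (log2, SHR minus WKY) over the fits without 1 array and the fit without SHR replicate 1 together with WKY replicate 3, which was added once the values were known: Adipoq -2.29 to 0.38, Lep -1.91 to 0.26, Retn -1.43 to 0.61, Cidec -2.35 to 0.028, Plin2 -1.07 to 0.18, Pparg -1.29 to 0.48, Lpl -2.10 to 0.19, Fabp4 -1.41 to 0.16, Aqp7 -1.15 to 0.86, Pck1 -1.87 to 0.29, Agpat2 -1.68 to 0.084, Dgat1 -0.96 to 0.26, Pnpla2 -1.47 to 0.026, Lipe -1.45 to 0.070, Acaca -1.34 to 0.38, Scd -2.86 to 0.13, Elovl6 -1.39 to 1.06, Me1 -0.93 to 0.43, Thrsp -2.74 to 0.029 and Cfd -1.70 to 0.12. With the Adipoq level as covariate Lep turned to 0.039, Retn to 0.46, Plin2 to 0.10, Pparg to 0.22, Dgat1 to 0.13, Acaca to 0.15 and Me1 to 0.085. With array weights Aqp7 turned to -0.41 and Elovl6 to -0.85, and the mean over the members was -0.88, against -0.58 without weights. The weights were lowest for WKY replicate 3 (0.22) and SHR replicate 1 (0.69), and 1.08 to 2.05 for the other arrays. In that added fit, chosen after seeing the data, Aqp7 was -1.15 and Elovl6 -1.39, and the mean over the members was -1.44. There 14 of 32 had an unadjusted p under 0.05, with the share of all tested probe sets not computed, and none passed. The cause of these shifts was not tested. The array order held in 27 members after a further quantile normalization and in 28 after median centring.

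Whether replicate numbers pair the arrays was not settled. The deviations of equally numbered arrays from their strain means correlated at 0.35, -0.08 and 0.23 across probe sets. Those of unequally numbered arrays correlated at -0.32 to 0.17. With the replicate block 0 members passed, and 3 probe sets passed in all, against 15 without the block. With it 11 members had an unadjusted p under 0.05, and the share of all tested probe sets was not computed.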
